A study of Homo sapiens with 18 samples.

Results

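The genes described here are 36 genes of the endoplasmic reticulum (ER) that code for chaperones, folding enzymes, quality control proteins and the sensors of the unfolded protein response. They were chosen by name and found as gene rows in 3 tables of bulk RNA sequencing, 1 table for each of 3 human lung cancer cell lines. All 36 had a gene row in at least 1 table, out of 20374 genes with a gene row in any of them. Each line was treated for 24 h with CCS1477 (inobrodib), a small molecule that binds the bromodomain of the histone acetyltransferases p300 and CBP, or with its solvent DMSO. The 6 groups were H460 with CCS1477 and H460 with DMSO, H2023 with CCS1477 and H2023 with DMSO, and ABC-1 with CCS1477 and ABC-1 with DMSO, with 3 libraries in each group. H460 is labelled as large cell carcinoma and H2023 as squamous cell carcinoma, both described as NRF2-activated, and ABC-1 is labelled as adenocarcinoma and described as wildtype. No genetic change to a line is labelled, and each line is 1 genetic background. The dose was 5 µM according to the descriptions of the samples, which is the value used here; the text for the whole series writes 5 mM.

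Secreted and membrane proteins fold in the ER. When unfolded protein collects there, the sensors IRE1 (coded by ERN1), ATF6 and PERK (coded by EIF2AK3) start the unfolded protein response. IRE1 cuts a short intron out of the XBP1 transcript in the cytosol, and the spliced form codes for an active transcription factor. ATF6 is cut in the Golgi and its released part enters the nucleus, and PERK phosphorylates the translation factor eIF2α. XBP1 and ATF6 raise transcription of chaperones, of disulfide isomerases and of the machinery of ER-associated degradation (ERAD), which draws misfolded proteins back to the cytosol for the proteasome. Spliced XBP1 and ATF6 act through promoter elements named ERSE, ERSE-II and UPRE.

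Promoters of 4 of the genes are printed as examples that hold an ERSE or ERSE-II element. XBP1, HERPUD1 and ERO1B had the largest changes with CCS1477, and HSPA5, which changed less, is the classical target gene of the response. Each run is the 250 bases before the RefSeq start site, read 5′ to 3′ on the strand of the gene, from RefSeq on GRCh38.p14. Capitals mark ERSE (CCAAT, 9 bases of any kind, CCACG) in XBP1, HSPA5 and ERO1B and ERSE-II (ATTGG, 1 base of any kind, CCACG) in HERPUD1. In ERO1B the element lies in reverse, so its capitals show the complementary strand.
XBP1, chr22:28800570-28800819, minus strand, element 52 to 34 bases before the start: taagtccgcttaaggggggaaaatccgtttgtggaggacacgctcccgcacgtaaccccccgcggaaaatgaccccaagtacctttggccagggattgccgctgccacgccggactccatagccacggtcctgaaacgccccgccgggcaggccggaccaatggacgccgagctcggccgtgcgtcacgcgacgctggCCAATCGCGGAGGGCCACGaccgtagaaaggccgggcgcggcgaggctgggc
HSPA5, chr9:125241344-125241593, minus strand, element 66 to 48 bases before the start: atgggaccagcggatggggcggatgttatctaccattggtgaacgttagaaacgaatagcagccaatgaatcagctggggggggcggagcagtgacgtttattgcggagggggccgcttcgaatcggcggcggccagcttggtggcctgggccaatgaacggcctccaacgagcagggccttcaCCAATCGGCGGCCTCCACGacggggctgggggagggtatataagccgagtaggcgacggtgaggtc
ERO1B, chr1:236281959-236282208, minus strand, element 243 to 225 bases before the start: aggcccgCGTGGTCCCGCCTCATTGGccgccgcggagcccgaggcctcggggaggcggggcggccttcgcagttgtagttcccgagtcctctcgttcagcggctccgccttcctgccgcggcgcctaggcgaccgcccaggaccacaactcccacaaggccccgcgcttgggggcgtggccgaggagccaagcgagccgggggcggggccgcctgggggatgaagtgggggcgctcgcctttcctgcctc
HERPUD1, chr16:56931892-56932141, plus strand, element 117 to 107 bases before the start: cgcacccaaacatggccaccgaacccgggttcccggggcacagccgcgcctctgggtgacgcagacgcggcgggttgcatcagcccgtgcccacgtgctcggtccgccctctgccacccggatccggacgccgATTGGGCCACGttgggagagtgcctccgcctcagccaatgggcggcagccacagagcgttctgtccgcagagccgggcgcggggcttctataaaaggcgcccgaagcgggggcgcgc

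The intron that IRE1 removes from XBP1 is shown because it decides which XBP1 protein is made and the gene rows do not report on it. It lies in exon 4 of transcript XBP1-201, at chr22:28796124-28796149 on the minus strand of GRCh38, and its 26 bases are in capitals between 24 bases of exon on each side.
XBP1 intron, chr22:28796100-28796173, minus strand: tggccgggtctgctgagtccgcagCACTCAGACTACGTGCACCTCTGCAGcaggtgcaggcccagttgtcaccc
A gene row counts reads of the unspliced and the spliced form together, so the values below give the amount of XBP1 RNA and not the share that IRE1 had spliced.

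Libraries of H460 held 26652285 to 33568167 recovered reads, those of H2023 held 15352631 to 18261155, and those of ABC-1 held 14483976 to 17483292. CCS1477 replicate 1 of H460 stood apart from the other libraries of that line: mitochondrial genes held 0.795% of its reads and 1.77 to 2.06% in the other 5. Without it, 7 of the genes rose and 14 fell in H460, in place of 8 and 10, and the log2 changes there were -0.98 for XBP1, 0.66 for ERN1, 0.64 for ERO1B, -0.33 for HSPA5 and 0.24 for EIF2AK3. Separate cultures are not stated for the replicates, so a p-value reflects how much these libraries vary, and that variation may be technical. The squamous label of H2023 was not borne out by its markers, since TP63 stood at 0.420 ± 0.172 CPM in CCS1477 cells, against 1.84 ± 0.415 CPM in DMSO cells there, and KRT5, SOX2 and DSG3 had no gene row. The adenocarcinoma marker NKX2-1 stood at 0.624 ± 0.268 CPM in CCS1477 cells, against 1.34 ± 0.277 CPM in DMSO cells in ABC-1, and NAPSA and SFTPB had no gene row there, while the squamous list's SOX2 stood at 66.7 ± 2.22 CPM in CCS1477 cells, against 149 ± 4.51 CPM in DMSO cells (log2 change -1.22 ± 0.04, adjusted p 7.92e-10). TP63 of the same list stood at 0.176 ± 0.178 CPM in CCS1477 cells, against 1.35 ± 0.496 CPM in DMSO cells in ABC-1. Of the 5 epithelial markers, 5 fell in H2023 with CCS1477, 3 rose and none fell in ABC-1, and 1 rose and none fell in H460, where 3 were tested. Their summed level was 2793 to 3629 CPM in CCS1477 libraries, against 2472 to 2519.5 CPM in DMSO libraries of H460. It was 4473 to 4536 CPM in CCS1477 libraries, against 5452 to 5584 CPM in DMSO libraries of H2023, and 8179 to 8227 CPM in CCS1477 libraries, against 5897 to 6359 CPM in DMSO libraries of ABC-1. The endothelial markers PECAM1 and CDH5 had no gene row or were below the filter in each line. COL1A1, a fibroblast collagen, rose in ABC-1, at 22.98 ± 0.560 CPM in CCS1477 cells, against 7.53 ± 0.620 CPM in DMSO cells, and fell in H460, at 4.00 ± 0.366 CPM in CCS1477 cells, against 7.79 ± 1.02 CPM in DMSO cells. PDGFRB, a fibroblast receptor, fell in H460 too, at 0.637 ± 0.0935 CPM in CCS1477 cells, against 2.42 ± 0.445 CPM in DMSO cells. The part of these marker changes in the results below was not tested. In bulk libraries fewer cells of a kind and less RNA per cell cannot be told apart.

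Levels are given as CPM, the reads of a gene row scaled to a common library total. A change is the log2 ratio of CCS1477 to DMSO cells, followed by ± its SE, from limma fitted to all genes of a line. The fit used the deposited values, scaled by the authors with a constant of 4 added before the log, so a change can differ from the ratio of the CPM. A gene rose or fell where the Benjamini-Hochberg adjusted p, over all genes tested in that line, was under 0.05. Each line was tested with 35 of the 36 genes. DERL3, a paralog in the Derlin family, had no gene row in H460 and ABC-1 and was below the filter of 1 CPM in H2023, at 0.0651, 0.246 and 0.182 CPM in CCS1477 cells, against 0.561, 0.548 and 0.585 CPM in DMSO cells.

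More of these genes fell than rose with CCS1477 in H2023 and ABC-1, and the largest changes were those of XBP1, HERPUD1 and ERO1B. In H460, 8 rose and 10 fell, against 28.2% of all tested genes that rose and 27.9% that fell. In H2023, 5 rose and 18 fell, against 28.6% and 31.9% of all genes. In ABC-1, 10 rose and 17 fell, against 33.5% and 32.6% of all genes. In H460 the shares of the 35 genes were near those of all genes, and in the other lines a larger share of the 35 fell. The 18 in H2023 include XBP1, whose fall there was known when the genes were chosen; 17 of the other 34 fell. The median log2 change of the 35 genes was -0.07 in H460, where that of all genes was 0.00. It was -0.15 in H2023 (-0.01 over all genes) and -0.09 in ABC-1 (0.01 over all genes). A change of at least 1 log2 unit in either direction was reached by no gene in H460, by XBP1 and ERO1B in H2023 and by XBP1 and HERPUD1 in ABC-1. Among all genes tested in H460 the share that reached this size was 8.83%, with 9.76% for H2023 cells and 14.5% for ABC-1 cells. Changes of this size were thus rarer among the 35 genes than among all genes of each line. The pair from H2023 includes XBP1, whose fall there was known. Of the 35 genes, 3 rose in all 3 lines (ERO1B, SEL1L and EDEM1), beside 14.7% of all genes, and 6 fell in all 3 lines (XBP1, HSPA5, DNAJB11, PDIA6, MANF and DERL2), beside 12.7% of all genes, or 5 without XBP1. EDEM2 and DERL1 were called in opposite directions in different lines, and PDIA5 was called in no line. With library totals as the scaling, the order turned round in H460, where 9 rose and 8 fell; 5 rose and 15 fell in H2023, and 12 rose and 17 fell in ABC-1.

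**Figure D1:**
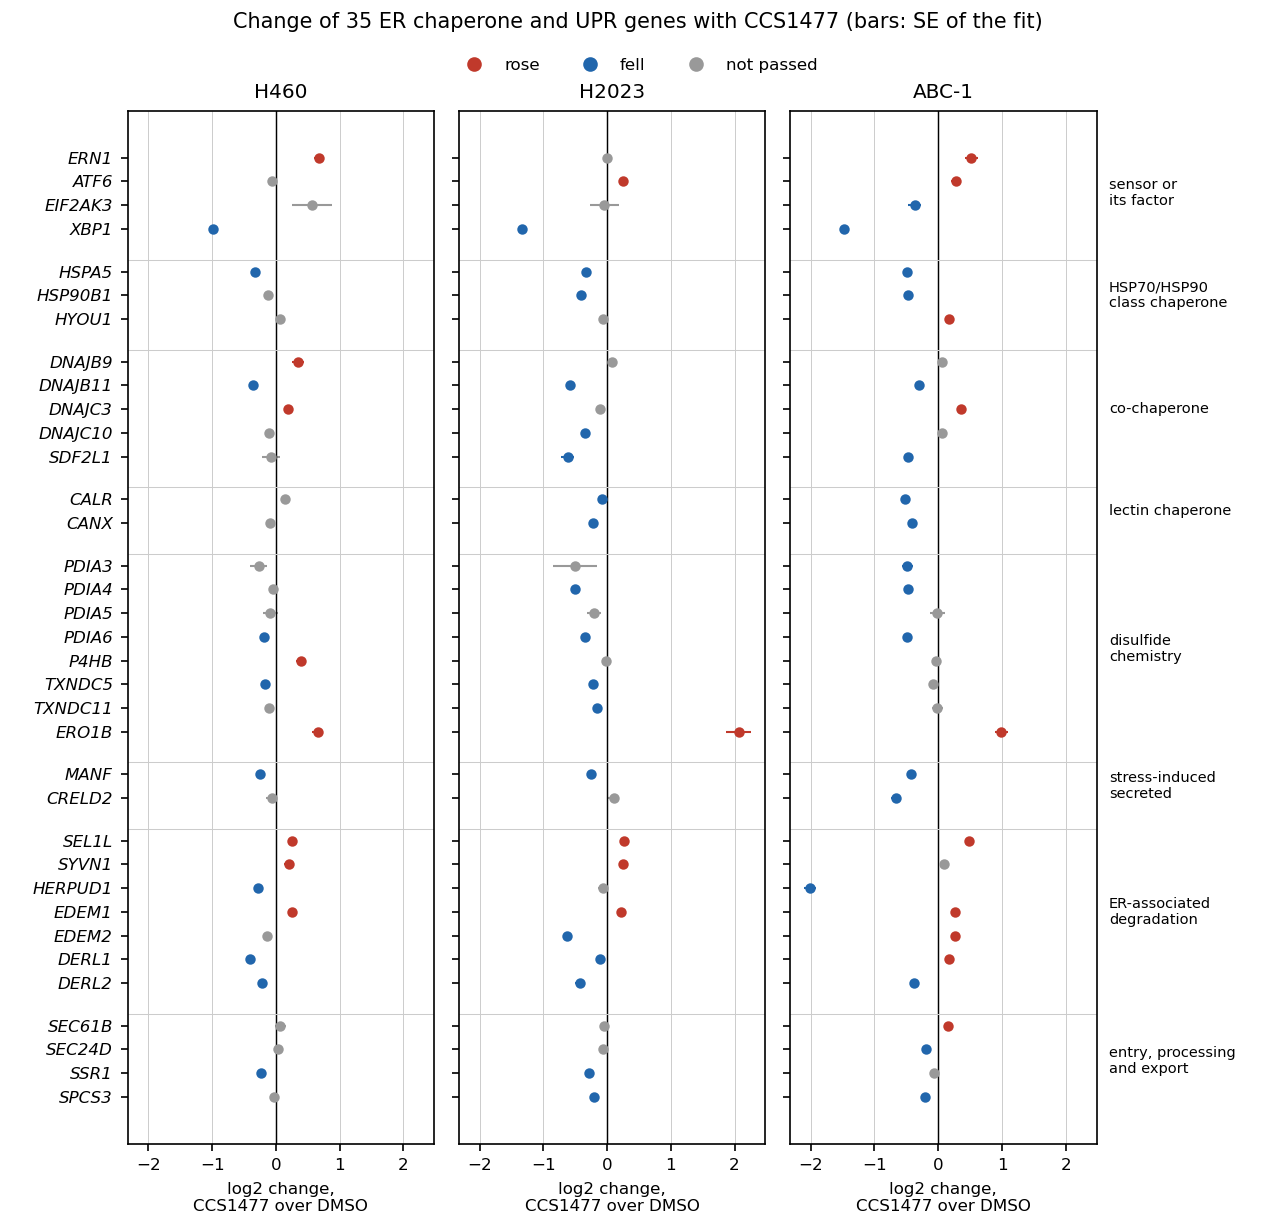
Log2 change of CCS1477 over DMSO (x axis) of the 35 tested genes in H460, H2023 and ABC-1, grouped by role; points are the fitted change, bars its SE, and colours show genes that rose, fell or did not pass. XBP1 lies at -0.99, -1.33 and -1.48 in the 3 lines, HERPUD1 at -2.01 in ABC-1 and ERO1B at 2.06 in H2023, while most other genes lie within 0.5 of 0.

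Of the sensors and their factor, XBP1 was lower in every line, while no sensor gene was called lower in H460 or H2023. XBP1 (ENSG00000100219) lies at chr22:28794555-28800597 on the minus strand of GRCh38. In H460 its level was 40.5, 40.6 and 42.7 CPM in CCS1477 cells, against 78.8, 76.4 and 78.9 CPM in DMSO cells. In H2023 it was 43.7, 45.9 and 43.8 CPM in CCS1477 cells, against 109, 104 and 113 CPM in DMSO cells. ABC-1 held 86.9, 89.7 and 86.6 CPM in CCS1477 cells, against 237, 237 and 230.4 CPM in DMSO cells. In each line all 3 CCS1477 libraries lay below all 3 DMSO libraries, and the spread within a group was small beside the gap. The log2 change was -0.99 ± 0.04 (SE) in H460, with an adjusted p of 1.47e-06 by limma, and -1.48 ± 0.04 in ABC-1, with an adjusted p of 8.85e-11. The fall in H2023, -1.33 ± 0.05, was known when the genes were chosen and is given as a description. A separate transcript row of XBP1, ENST00000484256, averaged 1.05 ± 0.452 CPM in CCS1477 cells and 2.51 ± 0.505 CPM in DMSO cells of H460. It averaged 1.06 ± 0.0704 CPM in CCS1477 cells and 3.12 ± 0.226 CPM in DMSO cells of H2023. In ABC-1 it averaged 3.10 ± 0.686 CPM in CCS1477 cells and 7.79 ± 0.765 CPM in DMSO cells (SD, n = 3 in each group). That row was lower with CCS1477 in all 3 lines, and it was not used as a measure of splicing by IRE1. A second row, ENST00000482720, had few reads and did not follow in H460 or ABC-1. It averaged 0.191 ± 0.275 CPM in CCS1477 cells and 0.193 ± 0.0857 CPM in DMSO cells of H460. In H2023 it averaged 0.264 ± 0.231 CPM in CCS1477 cells and 0.676 ± 0.101 CPM in DMSO cells, and in ABC-1 0.880 ± 0.575 CPM in CCS1477 cells and 0.544 ± 0.322 CPM in DMSO cells.

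ERN1, the gene of IRE1 (ENSG00000178607), rose in H460 and ABC-1. Its level in H460 was 18.1, 18.3 and 16.7 CPM in CCS1477 cells, against 10.96, 10.5 and 10.1 CPM in DMSO cells, a log2 change of 0.67 ± 0.07 with an adjusted p of 0.000105. The ABC-1 level was 18.99, 15.9 and 19.2 CPM in CCS1477 cells, against 12.7, 10.8 and 12.6 CPM in DMSO cells, a log2 change of 0.52 ± 0.10 with an adjusted p of 0.000774. The CCS1477 libraries lay above the DMSO libraries in both lines. In H2023 the level was 35.8, 35.99 and 36.3 CPM in CCS1477 cells, against 34.4, 34.6 and 35.2 CPM in DMSO cells, and the log2 change of 0.00 ± 0.05 did not pass the test. The treated libraries of H2023 lay just above its DMSO libraries, and all 6 lay above every library of the other lines.

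ATF6 (ENSG00000118217) rose in H2023 and ABC-1 by small amounts. In H2023 its level was 95.6, 97.2 and 87.8 CPM in CCS1477 cells, against 77.4, 75.95 and 73.3 CPM in DMSO cells, a log2 change of 0.25 ± 0.05 with an adjusted p of 0.0008. In ABC-1 it was 80.6, 98.7 and 103 CPM in CCS1477 cells, against 71.7, 76.9 and 73.5 CPM in DMSO cells, a log2 change of 0.28 ± 0.08 with an adjusted p of 0.00841. The groups did not overlap in either line, although CCS1477 replicate 1 of ABC-1 lay much nearer to the DMSO libraries than the other two. In H460 the groups overlapped, at 88.4, 90.5 and 86.1 CPM in CCS1477 cells, against 89.6, 87.7 and 85.02 CPM in DMSO cells, and the change did not pass (-0.06 ± 0.04).

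EIF2AK3, the gene of PERK (ENSG00000172071), was the least steady of the sensors, and a varying share of its reads was in transcript rows. Its gene row held 18.2, 9.34 and 8.82 CPM in CCS1477 cells, against 5.29, 7.12 and 10.4 CPM in DMSO cells in H460, where the groups overlapped and the log2 change of 0.57 ± 0.31 did not pass. With the 3 transcript rows of the gene added, its level in H460 was 20.02, 17.1 and 18.1 CPM in CCS1477 cells, against 11.4, 12.6 and 15.2 CPM in DMSO cells. The summed values did not overlap, and their log2 change of 0.42 passed, with an adjusted p of 0.00799. In H2023 the gene row stood at 12.3, 6.33 and 12.1 CPM in CCS1477 cells, against 11.1, 10.5 and 7.99 CPM in DMSO cells, with overlapping groups and no call (-0.04 ± 0.23). In ABC-1 it stood at 30.9, 31.9 and 38.2 CPM in CCS1477 cells, against 47.6, 41.6 and 36.2 CPM in DMSO cells and fell by the test (-0.37 ± 0.10, adjusted p 0.00803), although the lowest DMSO library lay below the highest CCS1477 library. That call was lost in one fit over the 18 libraries, with an adjusted p of 0.253.

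**Figure D2:**
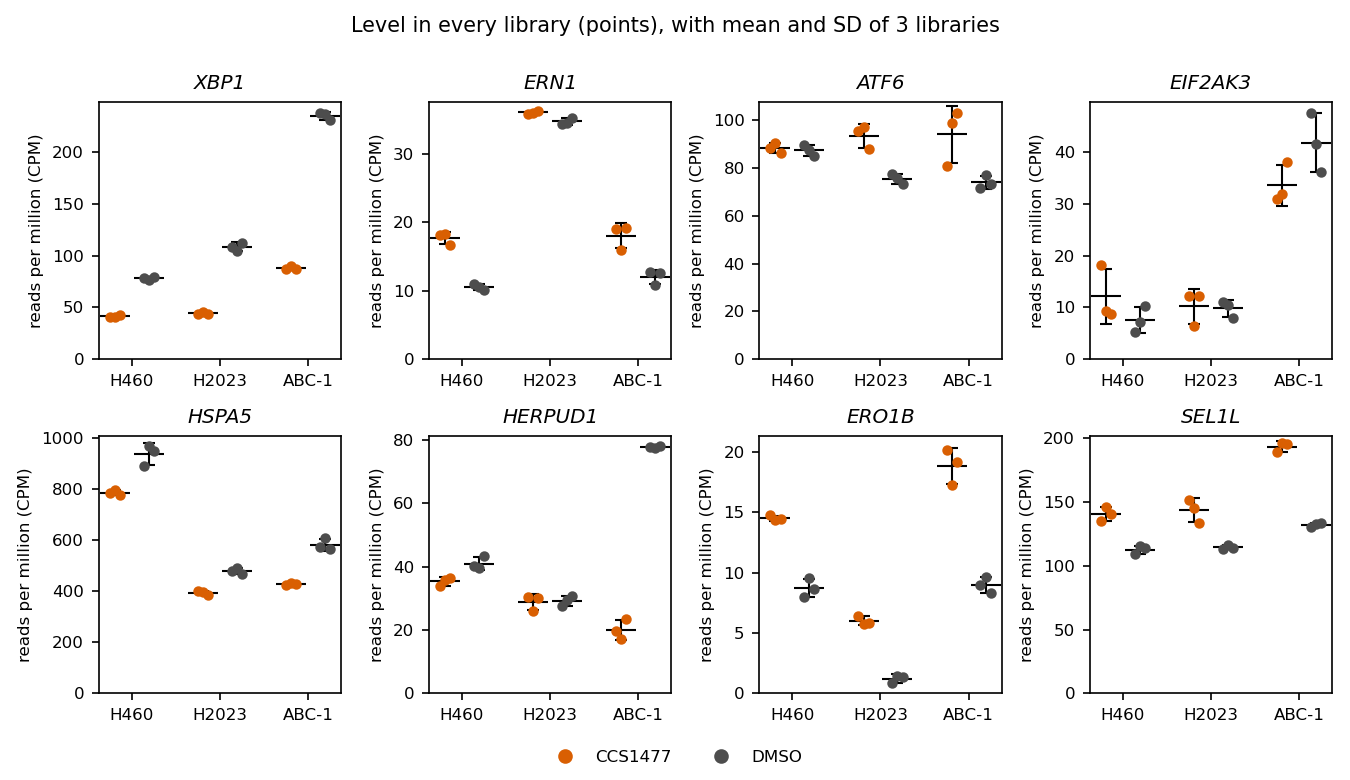
CPM (y axis, from 0) of 8 genes in every library, with CCS1477 left of DMSO in each line; points are libraries, and the bar and whiskers are the mean and SD of 3. XBP1 in CCS1477 cells lies below DMSO cells in all 3 lines, ERO1B and SEL1L lie above, and HERPUD1 separates widely in ABC-1, at 17.1 to 23.4 CPM in CCS1477 cells, against 77.4 to 78.3 CPM in DMSO cells.

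Of the HSP70 and HSP90 class chaperones, HSPA5 fell in all 3 lines, HSP90B1 fell in 2 and HYOU1 in none. HSPA5 (ENSG00000044574, chr9:125234853-125241330 on the minus strand) codes for BiP, the abundant chaperone that binds unfolded chains and holds the sensors inactive. In H460 its level was 783, 794 and 774 CPM in CCS1477 cells, against 889, 969 and 949 CPM in DMSO cells. In H2023 it was 399.7, 396 and 383 CPM in CCS1477 cells, against 479, 488 and 467 CPM in DMSO cells. ABC-1 held 425, 432 and 429 CPM in CCS1477 cells, against 572, 608 and 563 CPM in DMSO cells. Treated libraries lay below DMSO libraries throughout, by log2 changes of -0.33 ± 0.05, -0.34 ± 0.03 and -0.50 ± 0.04, with adjusted p of 0.000536, 9.16e-06 and 1.15e-06 in H460, H2023 and ABC-1. HSP90B1 codes for GRP94, which folds client proteins such as integrins. It fell to 783, 776 and 812 CPM in CCS1477 cells, against 1023, 1075 and 1079 CPM in DMSO cells of ABC-1, a log2 change of -0.48 ± 0.04 (adjusted p 9.2e-07). In H2023 it fell, with a log2 change of -0.41 ± 0.03 (adjusted p 9.73e-07), and in H460 the change of -0.12 ± 0.05 did not pass. HYOU1 codes for GRP170, a nucleotide exchange factor of BiP. It rose in ABC-1, at 275, 263 and 261 CPM in CCS1477 cells, against 224, 225 and 233 CPM in DMSO cells, a log2 change of 0.17 ± 0.04 (adjusted p 0.00154). HYOU1 changes of 0.06 ± 0.05 in H460 and -0.06 ± 0.05 in H2023 did not pass. By the test between lines, H2023 minus ABC-1 was -0.23 ± 0.07 for HYOU1 and passed (adjusted p 0.0113). H460 minus ABC-1 (-0.11 ± 0.07, adjusted p 0.212) and H2023 minus H460 (-0.12 ± 0.07, adjusted p 0.191) did not pass.

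The BiP co-chaperones were divided. DNAJB11, which codes for the co-chaperone ERdj3 that hands unfolded proteins to BiP, fell in all 3 lines. Its level was 43.3, 45.5 and 47.01 CPM in CCS1477 cells, against 54.6, 56.7 and 54.3 CPM in DMSO cells in H460 (-0.36 ± 0.05, adjusted p 0.000449). In H2023 it was 62.99, 58.1 and 57.7 CPM in CCS1477 cells, against 85.2, 86.5 and 87.8 CPM in DMSO cells (-0.59 ± 0.05, adjusted p 1.12e-06). ABC-1 held 160.0, 166 and 154 CPM in CCS1477 cells, against 184, 191 and 190.2 CPM in DMSO cells (-0.30 ± 0.04, adjusted p 4.99e-05). The groups of DNAJB11 did not overlap in any line. DNAJC3, which codes for p58IPK, an ER co-chaperone also described as an inhibitor of PERK, rose in H460 and ABC-1. In ABC-1 its level was 64.6, 66.9 and 67.9 CPM in CCS1477 cells, against 50.2, 48.2 and 51.2 CPM in DMSO cells (0.35 ± 0.04, adjusted p 2.14e-05). Its change was 0.19 ± 0.04 in H460 (adjusted p 0.00368) and -0.12 ± 0.05 in H2023, where it did not pass. DNAJB9, the gene of ERdj4, which keeps IRE1 bound to BiP, rose in H460, at 13.1, 11.2 and 12.4 CPM in CCS1477 cells, against 9.83, 8.73 and 8.81 CPM in DMSO cells (0.35 ± 0.09, adjusted p 0.0108). For DNAJB9, the difference H460 minus ABC-1 passed (0.29 ± 0.10, adjusted p 0.0226), while H2023 minus H460 did not (-0.26 ± 0.10, adjusted p 0.0575). SDF2L1, whose product works with ERdj3, fell in H2023 and ABC-1. It stood at 11.1, 13.8 and 12.2 CPM in CCS1477 cells, against 16.99, 18.9 and 19.4 CPM in DMSO cells in H2023 (-0.62 ± 0.10, adjusted p 0.000254). In ABC-1 its log2 change was -0.47 ± 0.07 (adjusted p 0.000169). In H460 CCS1477 replicate 1 lay above the other two, at 30.6, 21.6 and 20.4 CPM in CCS1477 cells, against 22.7, 24.5 and 24.4 CPM in DMSO cells, and no change passed with it; without it the log2 change was -0.25 and the adjusted p 0.0087. DNAJC10, which codes for ERdj5, a reductase that prepares proteins for ERAD, fell in H2023 (-0.34 ± 0.04, adjusted p 1.01e-05) and did not pass in the other lines.

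The lectin chaperones calreticulin (CALR) and calnexin (CANX) hold glycoproteins by their sugars during folding, and both fell in H2023 and ABC-1. CALR in ABC-1 was 1005, 985 and 976 CPM in CCS1477 cells, against 1343, 1373 and 1357 CPM in DMSO cells, a log2 change of -0.52 ± 0.04 (adjusted p 2.25e-07). In H2023 its groups overlapped, at 538, 523 and 526 CPM in CCS1477 cells, against 551, 541 and 529 CPM in DMSO cells, and the change of -0.08 ± 0.03 had an adjusted p of 0.0412, which 7 of 17 alternative settings raised above 0.05. In H460 its change of 0.14 ± 0.05 did not pass (adjusted p 0.0553), with all treated libraries above the DMSO libraries. CANX also fell, at a log2 change of -0.41 ± 0.04 in ABC-1 and -0.22 ± 0.04 in H2023 (adjusted p 1.51e-06 and 0.000356). Its H460 change of -0.09 ± 0.05 did not pass.

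Of 8 genes of disulfide chemistry, 2 rose and 2 fell in H460, 1 rose and 4 fell in H2023, and 1 rose and 3 fell in ABC-1. In H460 these shares are near the 28.2% and 27.9% of all genes that rose and fell. Of all genes, 28.6% rose and 31.9% fell in H2023, and 33.5% rose and 32.6% fell in ABC-1. The share of the 8 that fell was near that of all genes in ABC-1 and above it in H2023, and the share that rose was below it in both. ERO1B was the one that rose in every line. ERO1B (ENSG00000086619, chr1:236215555-236281985 on the minus strand) codes for an oxidase that recharges protein disulfide isomerases. Its level in H460 was 14.7, 14.4 and 14.4 CPM in CCS1477 cells, against 8.03, 9.57 and 8.63 CPM in DMSO cells. In H2023 it was 6.45, 5.77 and 5.82 CPM in CCS1477 cells, against 0.841, 1.48 and 1.36 CPM in DMSO cells. ABC-1 cells gave 20.2, 17.2 and 19.2 CPM in CCS1477 cells, against 8.98, 9.65 and 8.29 CPM in DMSO cells. Every treated library exceeded every DMSO library, with log2 changes of 0.65 ± 0.08, 2.06 ± 0.20 and 0.99 ± 0.10 and adjusted p of 0.000321, 6.67e-06 and 5.54e-06 in H460, H2023 and ABC-1. The H2023 ratio rests on few reads in DMSO cells, where ERO1B was near 1 CPM. ERO1B overlaps GPR137B and RNU2-70P on the opposite strand, and how strand was used in counting is not known.

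PDIA6, an isomerase that also binds IRE1, fell in all 3 lines. In ABC-1 its level was 407, 417 and 407 CPM in CCS1477 cells, against 549, 559 and 545 CPM in DMSO cells, and its log2 changes were -0.19 ± 0.04, -0.35 ± 0.03 and -0.48 ± 0.03 (adjusted p 0.0065, 7.95e-06 and 2.38e-07 in H460, H2023 and ABC-1). PDIA4, the isomerase ERp72, fell in H2023 and ABC-1. It stood at 151, 144 and 142 CPM in CCS1477 cells, against 199, 207 and 194 CPM in DMSO cells in H2023 (-0.51 ± 0.04, adjusted p 1.26e-06). In ABC-1 the change was -0.48 ± 0.03 (adjusted p 2.63e-07), and in H460 it was -0.04 ± 0.05 and did not pass. Without CCS1477 replicate 1 the H460 change was -0.09 and passed (adjusted p 0.0494). P4HB, the classical isomerase PDI, rose in H460 and was not called in the other lines, at 623, 527 and 498 CPM in CCS1477 cells, against 396, 390.1 and 399 CPM in DMSO cells (0.40 ± 0.08, adjusted p 0.00247). The highest value was in CCS1477 replicate 1, and without that library the log2 change was 0.30. With its 7 transcript rows added, P4HB in H460 changed by 0.29 (adjusted p 0.000985). TXNDC5, a thioredoxin-like isomerase, had log2 changes of -0.17 ± 0.04 in H460 and -0.21 ± 0.05 in H2023, both falls by the test (adjusted p 0.00628 and 0.00189). TXNDC11, a thioredoxin domain protein, fell, with a log2 change of -0.15 ± 0.05 in H2023 (adjusted p 0.0211). PDIA5 was called in no line, with log2 changes from -0.20 to -0.01. In H2023 it fell by the test in 2 of 17 alternative settings, with transcript rows added and without CCS1477 replicate 3. The gene row of PDIA3 (ERp57, the partner of the lectin chaperones) is uncertain, since near-identical pseudogenes share its sequence and its level varied between replicates. It fell in ABC-1, at 37.1, 41.04 and 49.7 CPM in CCS1477 cells, against 60.4, 56.03 and 54.4 CPM in DMSO cells (-0.49 ± 0.09, adjusted p 0.000607), and that call was lost in one fit over the 18 libraries (adjusted p 0.145).

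MANF and CRELD2, secreted proteins that cells make under ER stress, fell where they were called. MANF fell in all 3 lines, with log2 changes of -0.25 ± 0.05, -0.26 ± 0.06 and -0.43 ± 0.07 and adjusted p of 0.00247, 0.00234 and 0.000163 in H460, H2023 and ABC-1. In H460 its level was 72.96, 75.2 and 74.3 CPM in CCS1477 cells, against 79.6, 86.9 and 84.5 CPM in DMSO cells, so the gap was small but the groups did not overlap. CRELD2 fell in ABC-1, at 23.6, 21.4 and 21.2 CPM in CCS1477 cells, against 35.3, 35.4 and 30.7 CPM in DMSO cells (-0.67 ± 0.08, adjusted p 2.02e-05). Its changes of -0.07 ± 0.08 in H460 and 0.10 ± 0.09 in H2023 did not pass. Without CCS1477 replicate 1 of H460 the change there was -0.16 and passed (adjusted p 0.0258).

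The ERAD genes moved in both directions within each line. SEL1L and SYVN1 code for the adaptor and the ubiquitin ligase (HRD1) of the main ERAD complex. SEL1L (ENSG00000071537) rose in all 3 lines. Its level was 135, 146 and 141 CPM in CCS1477 cells, against 109, 115 and 114 CPM in DMSO cells in H460. In H2023 it was 152, 145 and 134 CPM in CCS1477 cells, against 113, 116 and 114 CPM in DMSO cells. ABC-1 cells gave 189, 196 and 195 CPM in CCS1477 cells, against 130.1, 133 and 133 CPM in DMSO cells. No treated library overlapped a DMSO library, and the log2 changes were 0.25 ± 0.04, 0.27 ± 0.05 and 0.49 ± 0.04 (adjusted p 0.00197, 0.00047 and 3.02e-07 in H460, H2023 and ABC-1). SYVN1 rose in H2023, at 47.03, 42.9 and 40.9 CPM in CCS1477 cells, against 35.4, 34.8 and 35.9 CPM in DMSO cells (0.24 ± 0.06, adjusted p 0.00368). Its rise in H460 was 0.21 ± 0.08 with an adjusted p of 0.0472, a call lost in 8 of 17 alternative settings, and its ABC-1 change of 0.09 ± 0.05 did not pass. EDEM1, a protein that trims mannose and marks glycoproteins for ERAD, stood at 58.95, 59.1 and 58.7 CPM in CCS1477 cells, against 47.6, 46.8 and 46.6 CPM in DMSO cells of H460. Its level in H2023 was 80.6, 81.2 and 69.5 CPM in CCS1477 cells, against 63.3, 67.5 and 60.8 CPM in DMSO cells. The groups did not overlap in any line, and it rose in all 3 by 0.25 ± 0.04, 0.22 ± 0.07 and 0.26 ± 0.04 (adjusted p 0.000823, 0.0139 and 0.00017). In H2023 this call was lost when CCS1477 replicate 1, CCS1477 replicate 2 or DMSO replicate 3 was left out, with adjusted p of 0.052, 0.0559 and 0.0538.

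HERPUD1 (ENSG00000051108), an ER membrane protein that organises the SYVN1 complex, had the largest fall of the 35 tested genes in any line, in ABC-1. Its gene row there was 19.6, 17.1 and 23.4 CPM in CCS1477 cells, against 77.8, 77.4 and 78.3 CPM in DMSO cells, a log2 change of -2.01 ± 0.09 with an adjusted p of 8.78e-09. With its 10 transcript rows added, its level in ABC-1 was 31.8, 30.9 and 30.9 CPM in CCS1477 cells, against 113, 107 and 112 CPM in DMSO cells, with a log2 change of -1.88. Both measures left a wide gap between the groups. In H460 the gene row fell less, at 33.8, 35.8 and 36.5 CPM in CCS1477 cells, against 40.1, 39.7 and 43.3 CPM in DMSO cells (-0.29 ± 0.06, adjusted p 0.00303). In H2023 its groups overlapped, at 30.5, 26.1 and 30.01 CPM in CCS1477 cells, against 27.5, 29.4 and 30.6 CPM in DMSO cells, and the change of -0.07 ± 0.07 did not pass.

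Of the remaining ERAD genes, DERL2, a Derlin channel protein, fell in all 3 lines, with log2 changes of -0.21 ± 0.07, -0.43 ± 0.07 and -0.37 ± 0.07 (adjusted p 0.03, 0.000449 and 0.000811 in H460, H2023 and ABC-1). Its level in H2023 was 18.95, 18.4 and 16.7 CPM in CCS1477 cells, against 22.4, 23.3 and 24.5 CPM in DMSO cells, without overlap. Its H460 groups overlapped, and that call was lost in 5 of 17 alternative settings. With transcript rows added the H460 change was -0.32 (adjusted p 0.000394). Its paralog DERL1 fell in H460, at 57.9, 58.98 and 58.5 CPM in CCS1477 cells, against 72.6, 72.1 and 77.2 CPM in DMSO cells (-0.41 ± 0.04, adjusted p 0.000114). In ABC-1 it rose, at 141, 137 and 133 CPM in CCS1477 cells, against 118, 118 and 114 CPM in DMSO cells (0.18 ± 0.04, adjusted p 0.00271). DERL1 fell in H2023 too, with a log2 change of only -0.11 ± 0.04 (adjusted p 0.0266), with overlapping groups, and the call was lost in 6 of 17 settings. EDEM2, which starts the trimming of mannose, fell in H2023 and rose in ABC-1. Its level was 20.5, 24.6 and 21.3 CPM in CCS1477 cells, against 32.3, 33.02 and 33.3 CPM in DMSO cells in H2023 (-0.62 ± 0.07, adjusted p 3.15e-05). In ABC-1 it was 35.1, 34.1 and 31.4 CPM in CCS1477 cells, against 26.1, 27.7 and 26.4 CPM in DMSO cells (0.26 ± 0.07, adjusted p 0.00392). In H460 it did not pass (-0.14 ± 0.06), but without CCS1477 replicate 1 its change of -0.20 did (adjusted p 0.01).

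The genes of entry into the ER, signal processing and export changed little. SSR1, a subunit of the translocon-associated complex, fell in 2 lines, with log2 changes of -0.24 ± 0.04 in H460 and -0.28 ± 0.04 in H2023 (adjusted p 0.000874 and 0.000245). SPCS3, a signal peptidase subunit, fell in 2 lines, with a log2 change of -0.20 ± 0.05 in H2023 cells and of -0.20 ± 0.04 in ABC-1 cells (adjusted p 0.00452 and 0.000587). SEC24D, a coat protein of export vesicles, fell in ABC-1 (-0.19 ± 0.04, adjusted p 0.00195). SEC61B, a translocon subunit, rose in ABC-1 (0.15 ± 0.06, adjusted p 0.0426), a call lost in 7 of 17 settings. None of these 4 genes had an absolute log2 change above 0.28 in any line.

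Per exon length (CPM divided by the kilobases of exon, RPKM), CALR, CANX and HSPA5 were the highest genes in both groups of H460 and H2023, while HSP90B1 and P4HB followed CALR in CCS1477 cells of ABC-1. In ABC-1, CALR was the highest of the 35 genes, at 364 ± 5.49 in CCS1477 cells and 500.2 ± 5.52 in DMSO cells (SD, n = 3 in each group). In H460, CANX was at 233 ± 8.41 in CCS1477 cells and 235 ± 3.09 in DMSO cells. HSPA5 in H460 was at 201 ± 2.59 in CCS1477 cells and 239 ± 10.6 in DMSO cells. In those DMSO cells HSPA5 and CANX differed by less than the SD of HSPA5 but by more than that of CANX. XBP1 was at 13.6 ± 0.406 in CCS1477 cells and 25.8 ± 0.457 in DMSO cells in H460 and at 28.97 ± 0.560 in CCS1477 cells and 77.5 ± 1.27 in DMSO cells in ABC-1. ERN1 was the lowest in H460, at 1.63 ± 0.0821 in CCS1477 cells and 0.967 ± 0.0402 in DMSO cells. ERN1 was also the lowest in ABC-1, at 1.66 ± 0.169 in CCS1477 cells and 1.11 ± 0.0971 in DMSO cells. ERO1B was the lowest tested gene in H2023, at 1.12 ± 0.0703 in CCS1477 cells and 0.229 ± 0.0634 in DMSO cells. These levels are a description across tables that were scaled separately, without a test.

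**Figure D3:**
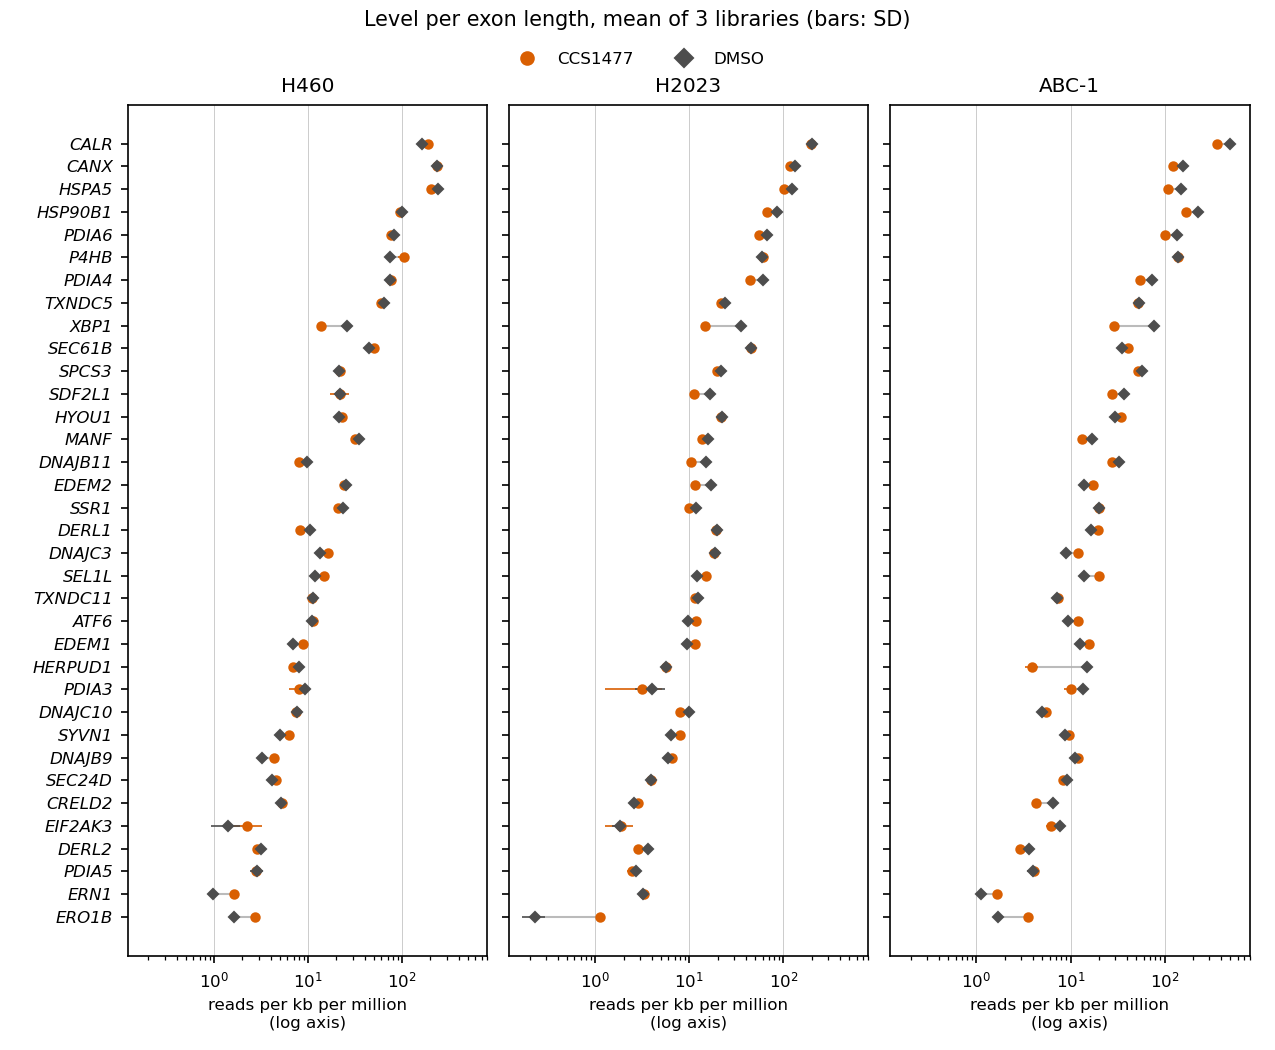
Mean RPKM (x axis, log scale) of the 35 genes in CCS1477 cells (circles) and DMSO cells (diamonds) of each line, ordered by their level in DMSO cells averaged over the lines; bars are the SD of 3 libraries. CALR, CANX and HSPA5 lead the mean order, and XBP1 in all lines, HERPUD1 in ABC-1 and ERO1B in H2023 show wide gaps between the groups.

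The difference in response between lines was tested in one fit over the 18 libraries on 11757 genes, adjusted per pair of lines. Between H2023 and H460, 15 of 35 genes differed, 3 with the higher change in H2023 and 12 with the lower, beside 30.3% of all genes. Between H2023 and ABC-1, 17 differed, 8 higher and 9 lower in H2023, beside 44.8% of all genes. The 8 became 5 without CCS1477 replicate 3 of ABC-1 or without DMSO replicate 2 of ABC-1. Between H460 and ABC-1, 20 differed, 13 higher and 7 lower in H460, beside 50.6% of all genes. For both pairs with ABC-1 the share of the 35 genes is near that of all genes. For XBP1, H460 minus ABC-1 was 0.49 ± 0.05 (adjusted p 6.58e-07), so its fall was shallower in H460. The XBP1 differences that involve H2023 are a description, since the fall there was known: -0.34 ± 0.05 for H2023 minus H460 and 0.15 ± 0.05 for H2023 minus ABC-1. HERPUD1 differed most: H2023 minus ABC-1 was 1.95 ± 0.12 and H460 minus ABC-1 was 1.73 ± 0.12 (adjusted p 7.92e-10 and 2.57e-09). The ERO1B rise was larger in H2023 than in H460 by 1.41 ± 0.20 (adjusted p 3.33e-05), from the lower starting level given above. For ERN1, H2023 minus H460 was -0.67 ± 0.11 (adjusted p 0.000102). For PDIA4, H2023 minus H460 was -0.47 ± 0.06 (adjusted p 9.06e-06).

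ERSE and ERSE-II were in a larger share of the promoters of these genes than of all genes. The genes were chosen by name from the response that acts through these elements. A larger share was thus built into the choice, and the shares are given only as a description. RefSeq windows of 300 bases, 250 before and 50 after a start, were found for 32 of the 36 genes, in 39 windows; DERL1, DERL3, PDIA3 and SEC24D had no entry. ERSE, on either strand, was in 8 of the 32 genes, beside 0.0916% of the 27305 genes in the RefSeq table. The 8 were CALR, CANX, CRELD2, ERO1B, HSP90B1, HSPA5, PDIA6 and XBP1. ERSE-II was in HERPUD1, HYOU1 and SDF2L1, beside 0.0696% of all genes. Its last bases, CCACG, are shared with ERSE and alone occurred in 75% of the 32 genes and 42.1% of all genes. The UPRE core TGACGTGG, which holds CCACG in reverse, was in DNAJC10, HYOU1, TXNDC11 and TXNDC5, beside 0.927% of all genes, and the amino acid response core TTGCATCA was in HERPUD1 alone of the 32, beside 1.08%. No window of SEL1L, EDEM1, ERN1, ATF6, DNAJC3 or SYVN1, which rose in at least 2 lines, held ERSE, ERSE-II, UPRE or that core. Nor did any window of DNAJB11, MANF or DERL2, which fell in every line, while ERO1B, which rose in every line, held ERSE. These are matches of letters and not measured sites.

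Of the 8 ERSE genes, 3 fell and 1 rose in H460, 6 fell and 1 rose in H2023, and 7 fell and 1 rose in ABC-1. The gene that rose in each line was ERO1B. The H2023 count includes XBP1, whose fall there was known; 5 of the other 7 fell. Of the 3 ERSE-II genes, 1 fell in H460, 1 fell in H2023, and 2 fell and 1 rose in ABC-1, where HYOU1 was the one that rose. The median log2 change of the 11 genes with either element was -0.09, -0.22 and -0.49 in H460, H2023 and ABC-1. It was -0.04, -0.15 and -0.01 for the other 21 matched genes. Without XBP1 the median of the 10 remaining genes in H2023 was -0.15, the same as that of the 21. The share of all genes that fell, given above, was 27.9%, 31.9% and 32.6% in these lines. No test was made of these counts.

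Other genes of the pathway were counted by list. Beside these counts, the shares of all genes that rose and fell were 28.2% and 27.9% in H460, 28.6% and 31.9% in H2023, and 33.5% and 32.6% in ABC-1. Of 19 other ERAD genes tested, 9 rose and 3 fell in H460, 8 rose and 2 fell in H2023, and 12 rose and 3 fell in ABC-1, with medians of 0.13, 0.08 and 0.22. The share that rose was above that of all genes in each line, and the share that fell was below it. VCP, the ATPase that pulls proteins out of the ER, averaged 609 ± 67.1 CPM in CCS1477 cells, against 351 ± 5.62 CPM in DMSO cells in H460 (log2 change 0.72 ± 0.07, adjusted p 8.17e-05). It rose by 0.59 ± 0.04 in H2023 and 0.60 ± 0.05 in ABC-1 (adjusted p 2.63e-07 and 1.54e-06). AUP1, an adaptor of ERAD on the ER and lipid droplets, fell, with a log2 change of -0.50 ± 0.05 in H460 and -0.41 ± 0.03 in H2023 (adjusted p 5.53e-05 and 1.5e-06). ERLIN1, a membrane protein of ERAD, fell, with a log2 change of -0.89 ± 0.05 in ABC-1 (adjusted p 2.18e-08).

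The PERK and ATF4 arm was counted by line. Of 12 genes, 4 rose and 8 fell in H460, while 6 rose and 4 fell in H2023. In ABC-1, 6 of 11 rose and 4 fell. The medians were -0.51, 0.21 and 0.14. In H460 the share that fell was above that of all genes, while in H2023 and ABC-1 it was close to it. The share that rose was above that of all genes in H2023 and ABC-1 and near it in H460. ATF4, the transcription factor of the arm, fell to 316 ± 10.6 CPM in CCS1477 cells, against 418 ± 16.03 CPM in DMSO cells in H460 (log2 change -0.47 ± 0.04, adjusted p 5.65e-05). In ABC-1 it averaged 144 ± 2.30 CPM in CCS1477 cells, against 251 ± 1.71 CPM in DMSO cells (-0.85 ± 0.03, adjusted p 2.14e-09). TRIB3, a pseudokinase gene that ATF4 induces, fell, with a log2 change of -1.38 ± 0.06 in H460 (adjusted p 1.08e-06). ASNS, asparagine synthetase, rose to 80.1 ± 0.554 CPM in CCS1477 cells, against 26.9 ± 3.94 CPM in DMSO cells in H2023 (1.53 ± 0.09, adjusted p 1.54e-07). PPP1R15A, the phosphatase subunit GADD34 that reverses PERK signalling, rose to 73.2 ± 1.57 CPM in CCS1477 cells, against 39.7 ± 1.06 CPM in DMSO cells in H2023 (0.83 ± 0.04, adjusted p 6.84e-08). CEBPB, of the same list, fell to 79.4 ± 2.88 CPM in CCS1477 cells, against 131 ± 2.55 CPM in DMSO cells in H2023 (-0.77 ± 0.04, adjusted p 8.89e-08). ATF3, a stress-induced factor, rose to 13.9 ± 0.618 CPM in CCS1477 cells, against 2.34 ± 0.142 CPM in DMSO cells in ABC-1 (2.39 ± 0.12, adjusted p 1.27e-08).

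Of 25 genes of the secretory pathway linked to XBP1, 10 fell and 5 rose in H460, 7 fell and 5 rose in H2023, and 11 fell and 7 rose in ABC-1 (medians -0.10, -0.05 and -0.07). In H2023 the share that fell was below that of all genes. With library totals as the scaling the order turned round, to 6 that fell and 9 that rose in H460 and 5 that fell and 8 that rose in H2023. SSR3, a translocon-associated subunit, fell, with a log2 change of -0.54 ± 0.05 in H460 and -0.33 ± 0.04 in H2023 (adjusted p 3.99e-05 and 3.84e-05). SPCS2, a signal peptidase subunit, fell, with a log2 change of -0.63 ± 0.06 in ABC-1 (adjusted p 3.12e-06). In the list of oligosaccharyl transfer and the calnexin cycle, 4 fell and 2 rose of 11 in H460, 6 fell and 1 rose in H2023, and 7 fell and 2 rose in ABC-1 (medians -0.10, -0.12 and -0.16). STT3A, a catalytic subunit of the transferase, fell, with log2 changes of -0.50 ± 0.06, -0.52 ± 0.04 and -0.66 ± 0.06 in H460, H2023 and ABC-1. CLGN, a paralog of calnexin best known in germ cells, rose in all 3 lines, at 19.9 ± 0.820 CPM in CCS1477 cells, against 4.51 ± 0.568 CPM in DMSO cells in ABC-1 (2.02 ± 0.11, adjusted p 2.6e-08).

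Among the other oxidoreductases, 6 of 10 fell and 1 rose in H460, 5 fell and 2 rose in H2023, and 6 fell and 2 rose in ABC-1 (medians -0.15, -0.10 and -0.10). With library totals as the scaling, 3 fell and 2 rose in H460, 3 fell and 3 rose in H2023, and 4 fell and 3 rose in ABC-1. AGR2, an isomerase that helps fold mucins, fell to 27.8 ± 1.05 CPM in CCS1477 cells, against 259.8 ± 9.48 CPM in DMSO cells in H2023 (-3.27 ± 0.04, adjusted p 5.7e-12). Its changes were -1.51 ± 0.04 in H460 and -0.89 ± 0.04 in ABC-1, both falls by the test. ERO1A, the paralog of ERO1B, fell by small amounts, -0.26 ± 0.04 in H460 and -0.29 ± 0.05 in H2023 (adjusted p 0.000901 and 0.000579). QSOX1, a sulfhydryl oxidase, rose in all 3 lines, with log2 changes of 0.68 ± 0.07, 0.53 ± 0.06 and 0.57 ± 0.04. TMX4, a membrane thioredoxin, fell in H460 (-0.55 ± 0.04) and rose in H2023 (0.95 ± 0.04) and ABC-1 (1.36 ± 0.05). Of the other ER chaperones, 4 fell and 1 rose of 12 in H460, 4 fell and 2 rose of 12 in H2023, and 5 fell and 3 rose of 11 in ABC-1 (medians -0.18, 0.02 and 0.03). SERPINH1, the collagen chaperone HSP47, fell, with log2 changes of -1.18 ± 0.05, -0.22 ± 0.04 and -0.50 ± 0.04 in H460, H2023 and ABC-1. Of the sensors' relatives and processing genes, 4 rose and 3 fell of 8 in H460, 3 rose and 3 fell of 9 in H2023, and 4 rose and 3 fell of 8 in ABC-1 (medians 0.06, -0.09 and 0.09). MBTPS1, a protease that cuts ATF6, rose by 0.38 ± 0.04 in H2023 and 0.54 ± 0.04 in ABC-1 (adjusted p 1.71e-05 and 2.14e-07). MBTPS2, of the same list, fell in H460 (-0.22 ± 0.04, adjusted p 0.00185) and rose in ABC-1 (0.36 ± 0.05, adjusted p 5.01e-05). Of 5 known substrates of RNA decay by IRE1, 2 fell and 1 rose in H460, 3 fell and 2 rose in H2023, and 1 fell and 3 rose in ABC-1 (medians -0.16, -0.23 and 0.45). SCARA3, one of these substrates, fell to 163 ± 7.23 CPM in CCS1477 cells, against 575 ± 5.24 CPM in DMSO cells in ABC-1 (-1.88 ± 0.04, adjusted p 1.79e-11). The 3 that rose in ABC-1 were COL6A1 (1.86 ± 0.23), PMP22 (1.38 ± 0.20) and HGSNAT (0.45 ± 0.05). COL6A1 was low there, at 6.86 ± 0.451 CPM in CCS1477 cells, against 1.69 ± 0.580 CPM in DMSO cells. So was PMP22, at 4.08 ± 0.606 CPM in CCS1477 cells, against 1.36 ± 0.330 CPM in DMSO cells. PMP22 fell in H460 (-0.33 ± 0.07) and H2023 (-0.80 ± 0.09), where DMSO cells held 58.6 ± 0.519 and 46.7 ± 0.914 CPM. COL6A1 rose in H2023 too (0.99 ± 0.10).

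**Figure D4:**
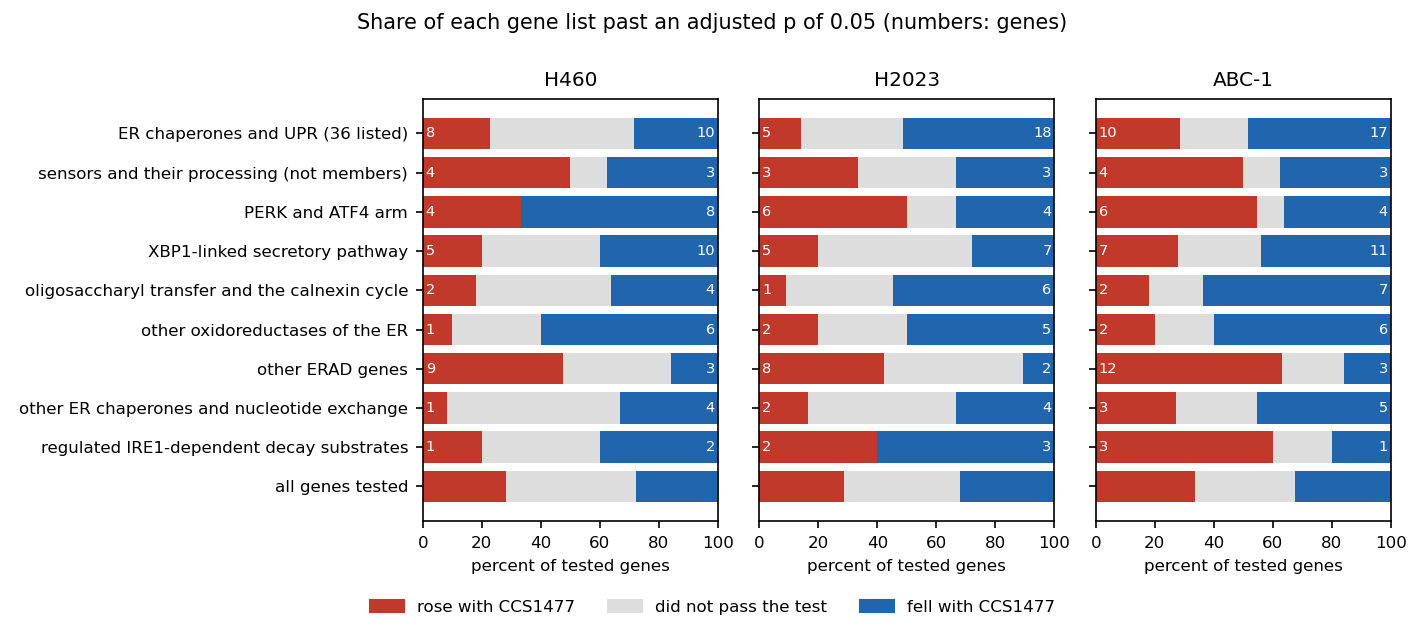
Percent of the tested genes of each list (x axis) that rose, did not pass or fell with CCS1477 in H460, H2023 and ABC-1, with the numbers of genes that rose (left) and fell (right), and all tested genes in the bottom bar. The other ERAD genes have more rises than falls in each line (9 and 3, 8 and 2, 12 and 3), while the 36 genes listed here have more falls than rises in each (10 and 8, 18 and 5, 17 and 10), an order that turned round in H460 with library totals as the scaling.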

How the data were processed

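Bulk RNA was sequenced as directional paired reads of 150 bases in 18 libraries, 3 for each of 6 groups (CCS1477 and DMSO in H460, H2023 and ABC-1), per the labels' protocols. The authors deposited 1 table per line with log2 values of reads divided by a scaling factor, with a constant of 4 added before the log, so a row without reads is at 2; this form was found from the values. Whole reads were recovered from them within 0.1 of a read, for values up to 1000 reads. The build is GRCh38, per the submitters' processing notes; the annotation, aligner, counter and use of strand: not given in the sources used here. Gene names, exon lengths and coordinates were taken from GENCODE 29 on GRCh38. No column of an unknown sample was found (0). A table holds gene rows and separate transcript rows, so a gene row can hold only part of the reads of its gene: transcript rows held 36.7, 13.6 and 18.0% of the EIF2AK3 reads and 32.7, 25.8 and 31.2% of the HERPUD1 reads in H460, H2023 and ABC-1. Of the transcript rows, 27419 of 34061 in H460 were matched to a gene in this way.

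Deposited log2 values were tested with limma 3.58.1 (R 4.3.3), CCS1477 against DMSO within a line, over gene rows at or above 1 CPM in 3 or more of 6 libraries (H460 13516 genes, H2023 14572, ABC-1 13543), with Benjamini-Hochberg adjustment. Differences between lines came from one fit over 18 libraries. The test was also run on simulated reads with known changes and the same spread in every library. That run did not cover a library that stands apart, such as CCS1477 replicate 1 of H460. The members and lists were chosen with earlier results of these data known. XBP1, HSPA5, ERN1, ATF6 and EIF2AK3 are given in full, as are, per line, the 6 highest and 6 lowest changes past the threshold with at least 5 CPM in the higher group; of other lists up to 4 genes per line with the smallest p are named. Alternatives changed the scaling, filter, constant, rows, model, samples and replicate block. Near-identical copies (pseudogenes of PDIA3, XBP1 and SSR1), the read-through BLOC1S5-TXNDC5, and genes on the opposite strand that overlap ERO1B, DERL2, CRELD2, DNAJB9, SYVN1 and HSP90B1 make those rows uncertain. Other members, among them PDIA6, DNAJB11, DERL1, TXNDC11 and PDIA3, also overlap a gene on the opposite strand. On the same strand, SYVN1 overlaps FAU and PDIA5 overlaps SEC22A. The depth sets the counting error of low genes.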

Additional observations from a re-analysis of the deposited data

Results flagged for a closer look

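Some genes are given here because the change with CCS1477 differed between 2 lines by the test of the difference itself, limma with Benjamini-Hochberg adjustment over 11757 genes. They are the 4 genes with the smallest p in each pair of lines. Each value is the log2 change in the first line minus that in the second, with its SE.

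Between H2023 and ABC-1, HERPUD1 differed by 1.95 ± 0.12, with changes of -0.07 and -2.01 in these lines (adjusted p 7.92e-10). EDEM2 differed by -0.89 ± 0.10, with changes of -0.62 and 0.26 (adjusted p 1.11e-06). DNAJC3 differed by -0.47 ± 0.06, with changes of -0.12 and 0.35 (adjusted p 4.01e-06). CALR differed by 0.43 ± 0.06, with changes of -0.08 and -0.52 (adjusted p 6.72e-06). EDEM2 was called in opposite directions in this pair.

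Between H2023 and H460, PDIA4 differed by -0.47 ± 0.06, with changes of -0.51 and -0.04 (adjusted p 9.06e-06). ERO1B differed by 1.41 ± 0.20, with changes of 2.06 and 0.65 (adjusted p 3.33e-05). XBP1 differed by -0.34 ± 0.05, with changes of -1.33 and -0.99, given as a description because the fall in H2023 was known beforehand. ERN1 differed by -0.67 ± 0.11, with changes of 0.00 and 0.67 (adjusted p 0.000102).

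Between H460 and ABC-1, HERPUD1 differed by 1.73 ± 0.12, with changes of -0.29 and -2.01 (adjusted p 2.57e-09). CALR differed by 0.65 ± 0.06, with changes of 0.14 and -0.52 (adjusted p 3.24e-08). DERL1 differed by -0.59 ± 0.05, with changes of -0.41 and 0.18 (adjusted p 5.26e-08), and was called lower in H460 and higher in ABC-1. XBP1 differed by 0.49 ± 0.05, with changes of -0.99 and -1.48 (adjusted p 6.58e-07).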

How the results depend on the processing

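No result changed direction among those past the threshold under the alternatives run. Leaving out 1 library at a time gave 7 to 9 genes that rose and 9 to 14 that fell in H460, 4 to 5 and 16 to 18 in H2023, and 9 to 10 and 17 to 18 in ABC-1. The genes with a higher change in H2023 than in ABC-1 numbered 5 to 8, with 5 both without CCS1477 replicate 3 and without DMSO replicate 2 of ABC-1; the cause was not tested. Scaling by library totals moved the median of all genes by 0.07, 0.05 and 0.06 in H460, H2023 and ABC-1, and the share of higher among called genes was 60.2%, 53.7% and 56.4% in place of 50.3%, 47.3% and 50.7%. Replicate numbers showed no strong pairing of the libraries. Deviations of same-numbered libraries correlated at 0.01, 0.10 and 0.05 in H460 and at 0.03, 0.04 and 0.04 in H2023. In ABC-1 they correlated at -0.10, -0.04 and -0.07. Differently numbered libraries correlated at -0.10 to 0.05 in H460, -0.03 to -0.01 in H2023 and -0.02 to 0.10 in ABC-1. In H2023 the same-numbered values were all positive and the others all negative, but each was small. With the number as a replicate block, 7 genes rose and 10 fell in H460, 5 rose and 20 fell in H2023, and 9 rose and 17 fell in ABC-1. PDIA3 in H2023, which did not pass in the main fit, fell by the test with this block and without CCS1477 replicate 2. The TXNDC11 call in H2023 was lost in 6 of 17 settings. CALR in H460 passed in 6 of 17. Depth limits ERO1B in DMSO cells of H2023 and DERL3.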
